A study of Tupaia belangeri with 2 samples.

Results

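The cells described here are 290 cells, out of 15998 with at least 500 genes detected, that were chosen by their measured transcripts of CBLN1, ZIC1, ZIC2 and ZIC4 and by little or no TCF7L2. A cell was taken when at least 2 of these 4 genes had a unique molecular identifier (UMI, which marks 1 captured transcript), when TCF7L2 had at most 1 UMI and when EBF3 had none. The cell also had to lie within a neuron gate, with no NES, at most 1 UMI of COL1A1, COL1A2 and COL3A1 together, and at most 1 of 6 cell cycle genes (MKI67, TOP2A, CENPF, PRC1, NUSAP1 and UBE2C) detected. The gate held 9748 cells. It is called a neuron gate for what it left out, as it required no neuronal gene and also held other cells. Of its 9458 cells outside the chosen ones, 155 had at least 50% haemoglobin UMIs, as did 4 of the chosen cells. Shares given below for the other cells of the gate include such cells. Embryo 1 contributed 105 of the chosen cells and embryo 2 contributed 185.

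The series holds the whole brains of 2 embryos of the tree shrew (Tupaia belangeri), aged 4 to 5 weeks after conception, and each brain gave 1 droplet library. No treatment, genotype or region separated the embryos, so each value below was set between cell populations and checked in both animals. The libraries hold 9241 and 9685 cells with 41868023 and 38077767 UMIs. Of these UMIs, 28.7% and 13.6% came from haemoglobin genes. The chosen cells hold 412417 and 659695 UMIs in embryos 1 and 2, with medians of 3549 and 3121 UMIs and of 1321 and 1250 genes per cell. The libraries shared 18 cell barcodes, and 0 of them belonged to the chosen cells. No region was dissected, so the labels give no position in the brain for any of these cells.

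ZIC genes encode zinc finger transcription factors of the dorsal neural tube, and they mark granule neurons of the cerebellum as well as neurons of the septum, thalamus and midbrain. CBLN1 encodes a secreted protein of the C1q family that granule neurons release to hold their synapses on Purkinje cells together. Cerebellar granule neurons arise from ATOH1-positive cells of the rhombic lip, switch ATOH1 off, take on PAX6, NEUROD1 and BARHL1, and signal with glutamate.

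The cells were proposed as resembling granule cells, which are glutamatergic, and their transmitter genes went against that name. The GABA synthesis genes GAD1 or GAD2 were found in 55.2% and 64.9% of the cells, and the glutamate transporter gene SLC17A6 in 10.5% and 11.9%. ATOH1 does not bear on the name, since maturing granule neurons lack it too. The cells are therefore called ZIC/CBLN1 neurons here, after the genes that chose them, and no cell type name is given. The word neurons follows the gate, and not every cell was shown to be one.

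The share of ZIC/CBLN1 neurons among cells with at least 500 genes was 1.46% in embryo 1 (95% Clopper-Pearson interval 1.20% to 1.77%) and 2.10% in embryo 2 (1.81% to 2.42%), or 1.78% ± 0.448 (SD, n = 2 embryos). The intervals cover counting error only, and they do not overlap.

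The 4 marker genes were not equally common, and as they chose the cells their values are a description. ZIC1 was found in 86 and 146 cells (81.9% and 78.9%) and ZIC2 in 71 and 139 cells (67.6% and 75.1%). CBLN1 was found in 43 and 76 cells (41.0% and 41.1%), and ZIC4 in 45 and 64 cells (42.9% and 34.6%). The largest group by combination had ZIC1 with ZIC2 and no other marker, at 91 cells or 31.4%. In all, 210 cells had 2 of the markers, 70 had 3 and 10 had 4.

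As summed levels in CPM (UMIs of the gene per 1000000 UMIs of the population), ZIC1 stood at 412 in embryo 1 and 338 in embryo 2. ZIC2 stood at 245 and 344, CBLN1 at 187 and 203, and ZIC4 at 155 and 120. In such sums, fewer cells with a transcript and less RNA per cell cannot be told apart.

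**Figure D1:**
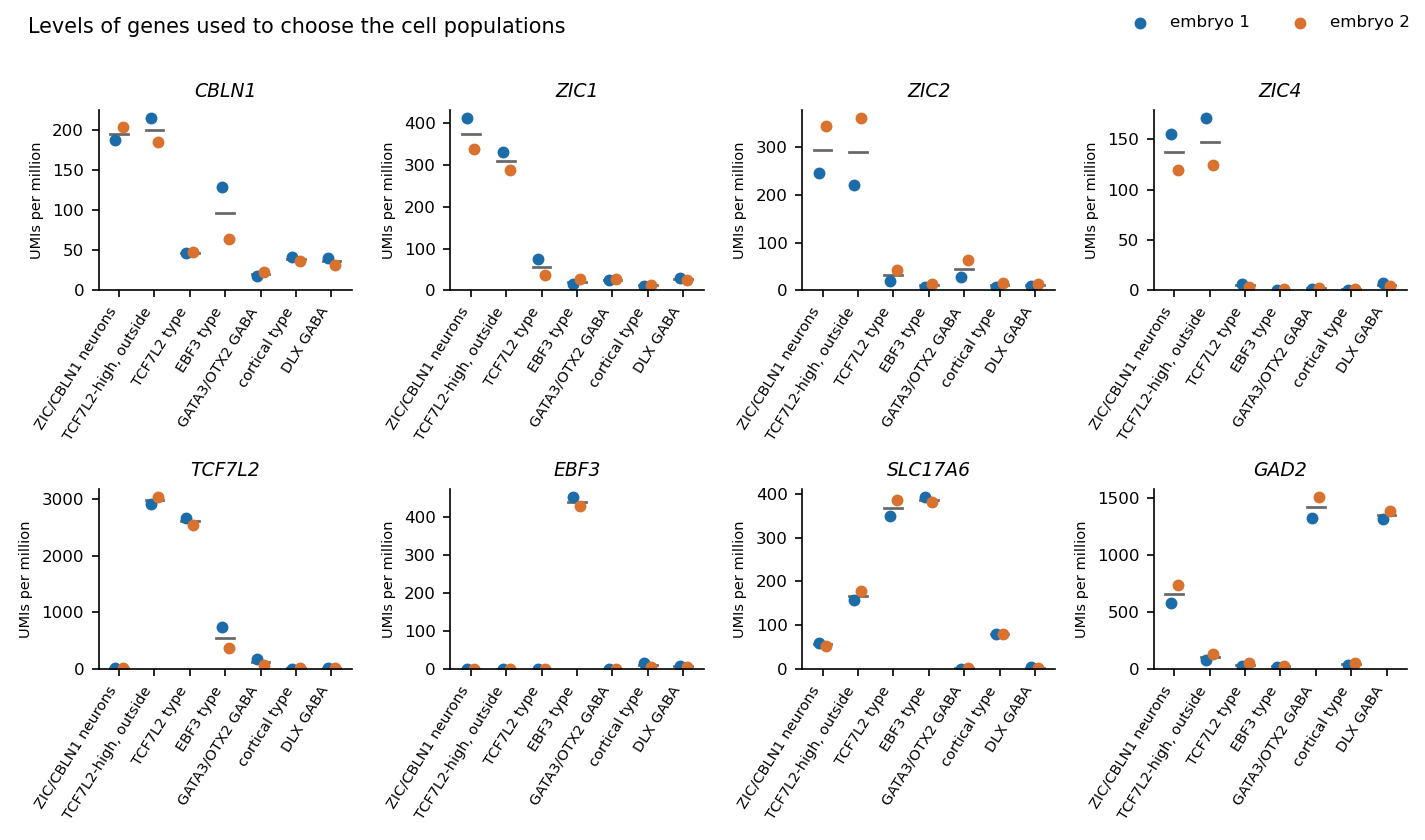
Summed level (CPM, linear axis from 0) of 8 genes that chose the populations, in each embryo (points) with the mean of both (line), for the ZIC/CBLN1 neurons, the cells beyond their TCF7L2 limit and 5 other neuron populations. ZIC and CBLN1 levels of the cells beyond the limit (2 or more UMIs of TCF7L2, median 10) lie near those of the ZIC/CBLN1 neurons, while TCF7L2 and SLC17A6 are higher there and GAD2 is lower.

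The TCF7L2 limit divided the ZIC- and CBLN1-positive neurons into groups with few cells between them. In total, 107 and 106 cells met every other criterion but had 2 or more UMIs of TCF7L2, with a median of 10 UMIs of it per cell in each embryo. Of these, 3 and 6 cells had exactly 2 UMIs, and on the inner side 7 and 10 cells had 1 UMI. The cells outside the limit held NEFM, a neurofilament subunit, at 3298 and 3002 CPM against 245 and 141 CPM inside it. LHX9, a LIM homeobox gene of the thalamus and dorsal midbrain, stood at 228 and 226 CPM outside and at 9.70 and 18.2 CPM inside. The habenular gene GNG8 stood at 475 and 688 CPM outside and at 4.85 and 69.7 CPM inside.

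The limit on the number of markers had no such gap. Cells with 1 marker that met every other criterion numbered 471 and 738. Their GAD2 level was 505 and 710 CPM, beside 582 and 732 CPM in the ZIC/CBLN1 neurons, and their SLC17A6 level was 55.4 and 42.6 CPM, beside 60.6 and 53.1 CPM. A further 37 and 39 cells failed only through EBF3.

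The transmitter genes were then read beside cells that should lack them. GAD1 or GAD2 was found in 55.2% of the ZIC/CBLN1 neurons of embryo 1 (45.2% to 65.0%) and 64.9% of those of embryo 2 (57.5% to 71.7%). Among TCF7L2-high glutamatergic neurons (SLC17A6-positive, EBF3-negative, median 3662.5 and 3540 UMIs), the share was 4.17% and 9.64%. SLC17A6 was found in 10.5% and 11.9% of the ZIC/CBLN1 neurons and in 0.303% and 0.634% of GATA3- or OTX2-positive GABA neurons, whose median depth was 2311 and 2195 UMIs. Both transmitter classes thus stood above the share in cells of the opposite kind. The latter shares were partly set by the rules, since cells that met the rules of several of these populations were left out. They are also given without thinning to equal depth.

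Counted by cell, 57 and 116 ZIC/CBLN1 neurons had a GAD gene or SLC32A1 without SLC17A6, 10 and 18 had SLC17A6 alone, 1 and 4 had both, and 37 and 47 had neither. At 2000 UMIs per cell, with 37 shallower cells left out, GAD1 or GAD2 was found in 47.8% and 54.0% and SLC17A6 in 8.89% and 11.0%. All other cells of the neuron gate, with median depths of 3023 and 2780 UMIs, had GAD1 or GAD2 in 44.2% and 53.9% (33.7% and 39.8% at 2000 UMIs) and SLC17A6 in 14.4% and 12.8% (10.2% and 11.0%). GAD-positive cells were the larger class in the ZIC/CBLN1 neurons of both embryos.

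For tests, the UMIs of each population were summed per embryo and compared by edgeR's quasi-likelihood test with the embryo as a block and Benjamini-Hochberg adjustment over all genes tested outside the rules (threshold 0.05). The reference populations came from the same gate, with fewer than 2 of the 4 markers. They were TCF7L2-high neurons (120 and 166 cells), EBF3-positive glutamatergic neurons (120 and 194), GATA3/OTX2 GABA neurons (330 and 789) and cortical-type neurons with at least 2 of NEUROD2, NEUROD6, TBR1 and FEZF2 (294 and 284). Each fold change is on the log2 scale with its standard error. A p-value sets a difference against the scatter left after the block. That scatter is pooled over all populations in the fit and moderated across genes, so it is not the spread between the animals in the populations compared. A called gene therefore need not have moved the same way in both of these 2 animals.

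Genes of the granule neuron lineage were examined next, since the proposed name rests on them. Of a list of 33 such genes, 24 are named in the annotation, 23 had a UMI in the ZIC/CBLN1 neurons and 15 passed the filter on low counts. Against the mean of the 4 reference populations on the log scale, 8 of the 15 were higher, 0 were lower and 7 did not pass. Of these 8, PAX6 and ZIC5 had passed that filter only through the ZIC/CBLN1 neurons, so they could not have come out lower. At an adjusted p under 0.05, 3.53% of all 5633 genes tested were higher and 1.47% were lower. The median log2 difference was 1.00 over the 15 genes, beside 0.00 over all genes tested.

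Transcription factors of the lineage made up most of this count. PAX6, a paired box factor of the rhombic lip, the forebrain and the retina, stood at 41.2 and 39.4 CPM and was found in 15 and 19 cells. It was at 0 in both embryos in TCF7L2-high neurons, which puts it at least 14.3-fold higher in the ZIC/CBLN1 neurons (3 counts over both embryos as the floor), and at or below 10.8 CPM in the other 3 reference populations (adjusted p = 1.72e-06 against the mean of 4, edgeR). ZIC5, which was not part of the rule, stood at 31.5 and 34.9 CPM, against 0 to 9.07 CPM in the 4 populations (adjusted p = 7.03e-07), which had fewer than 2 of the markers. It was not particular to these cells, since the ZIC- and CBLN1-positive cells beyond the TCF7L2 limit held 46.6 and 48.5 CPM. Because PAX6 and ZIC5 passed the low-count filter only through the ZIC/CBLN1 neurons, their p-values are no support for the proposed name.

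The nuclear factor I genes act in granule neuron and glial maturation. NFIX stood at 70.3 and 56.1 CPM (2.18 ± 0.32 above the mean of 4, adjusted p = 9.22e-06) and NFIB at 50.9 and 72.8 CPM (1.50 ± 0.24, adjusted p = 4.46e-05). Both were below the cortical-type neurons, which held NFIX at 199 and 134 CPM and NFIB at 205 and 224 CPM. Thus the position of these genes above the mean came from the other 3 populations.

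NEUROD1, a basic helix-loop-helix factor that drives granule neuron differentiation, stood at 31.5 and 36.4 CPM from 6 and 15 cells (1.12 ± 0.32, adjusted p = 0.0286), below the 102 and 113 CPM of cortical-type neurons. CHD7, a chromatin remodeller, stood at 230 and 261 CPM (0.58 ± 0.11, adjusted p = 0.000485), against 121 to 216 CPM in the 4 populations. NEUROD1 was not called by DESeq2, without the block, at 3 or more markers or at 1000 genes per cell, while CHD7 was called under every alternative tried for this comparison.

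UNC5C, a netrin receptor that guides granule precursors, stood at 26.7 and 54.6 CPM (2.34 ± 0.34, adjusted p = 9.64e-06), but GATA3/OTX2 GABA neurons held more of it, at 72.6 and 80.7 CPM (-0.79 ± 0.25, adjusted p = 0.0324). RELN, the secreted reelin protein, stood at 141 and 130 CPM from 25 and 45 cells (1.00 ± 0.24, adjusted p = 0.00672). It was again more abundant in GATA3/OTX2 GABA neurons, at 192 and 263 CPM (-0.76 ± 0.22, adjusted p = 0.0163), and its call against the mean of 4 was lost by DESeq2, without the block, at 3 or more markers, at 1000 genes per cell and at 2000 UMIs per cell.

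**Figure D2:**
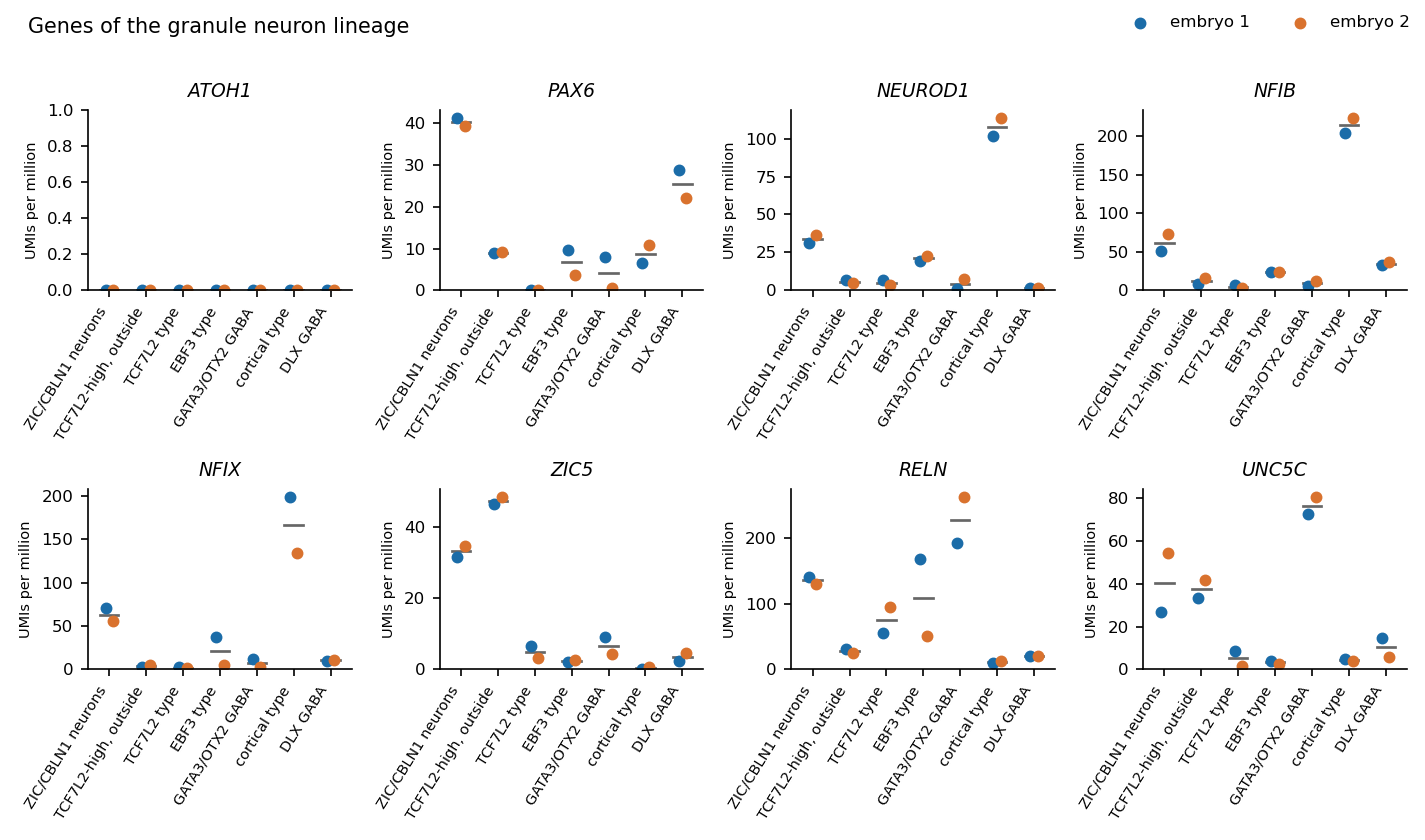
Summed level (CPM, linear axis from 0) of 8 granule lineage genes in each embryo (points) with the mean of both (line), for the ZIC/CBLN1 neurons and 6 other neuron populations. PAX6 is highest in the ZIC/CBLN1 neurons at 41.2 and 39.4, NFIB, NFIX and NEUROD1 peak in cortical-type neurons, RELN and UNC5C peak in GATA3/OTX2 GABA neurons, and ATOH1 is at 0 in the ZIC/CBLN1 neurons.

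Some genes of the list were at or near 0. ATOH1 was found in 0 of 105 and 0 of 185 cells, which allows a share of cells with a UMI of up to 2.86% and 1.62% at 3 counts (upper Clopper-Pearson bounds, as plotted, 3.45% and 1.97%), and in 1 of 3753 and 2 of 5705 other cells of the gate. UNC5B stood at 0 and 1.52 CPM and GLI2, an effector of hedgehog signalling, at 0 and 1.52 CPM. The annotation names no model BARHL1, SLC17A7 or RBFOX3, but models it calls BARH1, VGLU1 and RFOX3, picked out after their values were seen, stood at 9.70 and 4.55, 4.85 and 4.55, and 38.8 and 18.2 CPM. BARHL2, a homeobox gene of dorsal midbrain neurons as well, stood at 12.1 and 6.06 CPM. It did not pass against the mean of 4, was lower than in TCF7L2-high (17.5 and 42.5 CPM) and EBF3-positive neurons (48.7 and 32.5 CPM), and was higher than in DLX GABA neurons (0 and 0.444 CPM).

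Factors that mark several neuron lineages were found among the ZIC/CBLN1 neurons. DLX1, DLX2 or DLX5, homeobox genes of forebrain GABA neurons, were found in 27.6% (19.3% to 37.2%) and 30.8% (24.2% to 38.0%) of the cells, against 16.0% (14.8% to 17.2%) and 18.3% (17.3% to 19.3%) of the other cells of the gate. LHX1 or LHX5, LIM homeobox genes of midbrain, hindbrain and Cajal-Retzius neurons, were found in 26.7% and 34.6%, against 19.3% and 23.9%. Cells with both a DLX gene and LHX1 or LHX5 numbered 1 and 9, so for the most part these factors lay in different cells.

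With every cell thinned to 2000 UMIs, the DLX share was 18.9% and 26.4%, against 10.8% and 13.3% in the other cells. For LHX1 or LHX5 the thinned share was 15.6% and 23.3%, against 16.2% and 19.1%, so the order of the LHX shares in embryo 1 turned with depth. TFAP2A or TFAP2B, GABA neuron factors of the midbrain, were found in 18.1% and 18.4% of the ZIC/CBLN1 neurons and 14.7% and 17.4% of the others (15.6% and 17.2% against 14.8% and 17.7% at 2000 UMIs). GATA2, GATA3 or OTX2 were found in 13.3% and 24.9%, against 14.3% and 20.0% (6.67% and 19.6% against 9.98% and 14.2% at 2000 UMIs). None of the listed lineage factors was found in 24 and 35 of the cells (22.9% and 18.9%), against 35.7% and 34.3% of the other cells (37.8% and 29.4% against 42.4% and 41.9% at 2000 UMIs).

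At least 1 cortical factor was found in 31.4% and 16.8% of the ZIC/CBLN1 neurons, and in 19.8% and 11.5% of the other cells. At 2000 UMIs these shares were 25.6% and 12.3% against 19.4% and 12.8%. The embryos therefore differed in this share, and at equal depth the order held in embryo 1 alone.

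SIX3, a homeobox factor of the rostral forebrain and septum, was found in 13.3% (7.49% to 21.4%) and 12.4% (8.05% to 18.1%) of the cells, against 3.65% and 4.12% of the others (13.3% and 7.98% against 2.54% and 3.24% at 2000 UMIs). PAX6 was found in 14.3% and 10.3%, against 4.05% and 2.72% (7.78% and 6.13% against 2.75% and 1.66% at 2000 UMIs). RELN was found in 23.8% and 24.3%, against 10.9% and 14.4% (14.4% and 18.4% against 7.65% and 10.5%). For these 3 genes the shares in the ZIC/CBLN1 neurons were the higher ones in both embryos, and no test across embryos was run on shares.

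**Figure D3:**
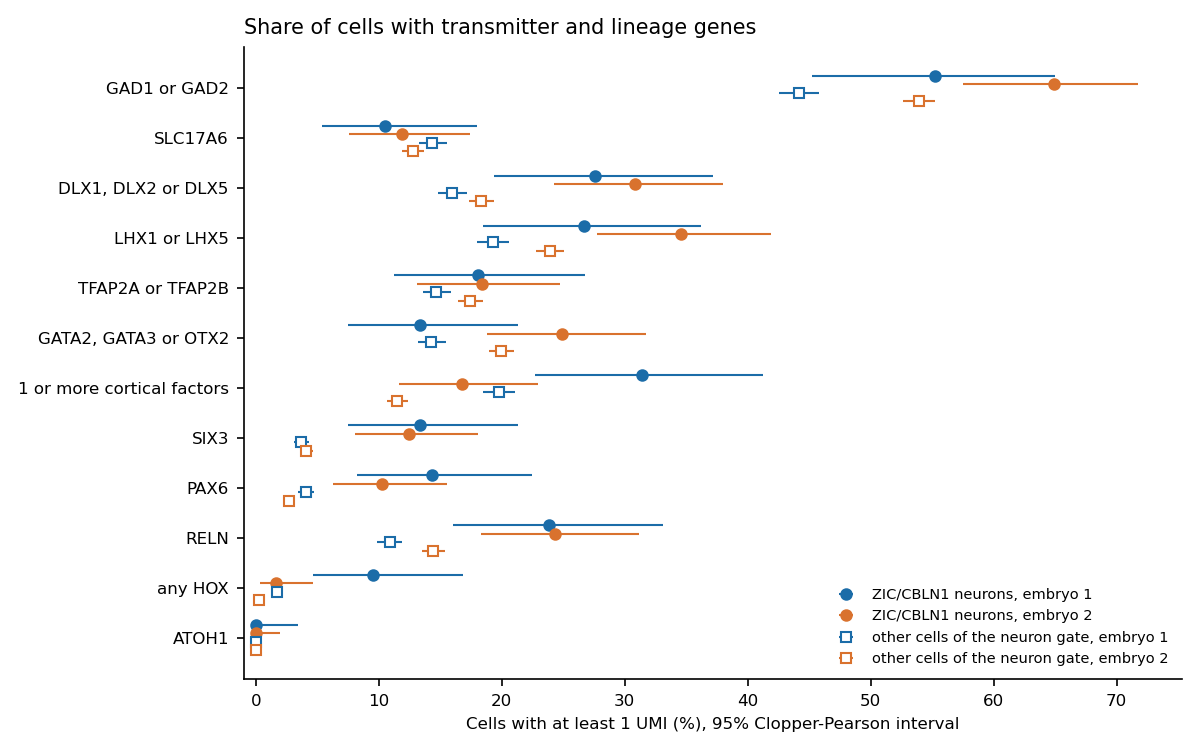
Share of cells with at least 1 UMI of each gene or set (percent, horizontal axis) in the ZIC/CBLN1 neurons (filled circles) and in all other cells of the neuron gate (open squares), with 95% Clopper-Pearson intervals, for embryo 1 (blue) and embryo 2 (orange). GAD genes lead at 55.2% and 64.9%, DLX, SIX3 and PAX6 lie to the right of the other cells in both embryos, and ATOH1 is at 0.

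Across the whole transcriptome, 282 of 5633 genes (5.01%) differed from the mean of the 4 reference populations, 199 higher and 83 lower. Without the embryo block the count was 117 (104 higher, 13 lower), and DESeq2 called 89 (76 higher, 13 lower). Of the 282 genes, 5 moved in opposite directions in the embryos, namely C1QL3, FZD10, GNG8, HBE1 and HBG1.

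PTGDS had the smallest adjusted p among the named genes. It encodes lipocalin-type prostaglandin D2 synthase, which meninges, choroid plexus and glia also make. It stood at 970 and 684 CPM and was found in 31 and 41 cells, with up to 73 and 100 UMIs in 1 cell. In the 4 reference populations it lay between 16.5 and 154 CPM, and in all other cells of the gate at 96.2 and 103 CPM (3.96 ± 0.14 above the mean of 4, adjusted p = 3.29e-21). The difference was seen in both embryos and was called under every alternative tried for this comparison.

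DLX5 stood at 150 and 185 CPM from 29 and 49 cells, against 1.95 to 24.8 CPM in the 4 populations (4.20 ± 0.23, adjusted p = 8.35e-16). It was not particular to these cells. DLX GABA neurons, which were chosen by GAD and DLX genes, held 646 and 740 CPM, and all other cells of the gate held 77.2 and 111 CPM. SIX3 stood at 43.6 and 56.1 CPM, against 0 in both embryos in the TCF7L2-high and the EBF3-positive neurons and 13.7 to 18.1 CPM in GATA3/OTX2 GABA neurons (adjusted p = 6.92e-10). The ZIC/CBLN1 neurons were therefore at least 18.3-fold higher in SIX3 than the first and at least 22.4-fold higher than the second.

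LHX1 stood at 112 and 191 CPM from 24 and 55 cells (2.40 ± 0.20, adjusted p = 4.68e-11). It was higher than in the TCF7L2-high, EBF3-positive and cortical-type neurons, at 3.30 to 32.5 CPM, but lower than the 591 and 597 CPM of GATA3/OTX2 GABA neurons (-1.89 ± 0.14). KITLG, the ligand of the receptor KIT, stood at 102 and 78.8 CPM (2.48 ± 0.23, adjusted p = 1.09e-09). TCF7L2-high neurons held more of it, at 235 and 206 CPM, and the other 3 populations held 1.13 to 15.6 CPM.

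LGALS1, the galectin-1 gene, stood at 342 and 311 CPM against 35.1 to 116 CPM (2.15 ± 0.17, adjusted p = 4.68e-11). DLK1, a delta-like membrane protein, stood at 82.4 and 25.8 CPM from 11 and 7 cells (4.28 ± 0.46, adjusted p = 2.42e-08). CRABP1, which binds retinoic acid, stood at 548 and 164 CPM from 19 and 20 cells (3.04 ± 0.34, adjusted p = 3.78e-08), and EBF3-positive neurons overlapped it at 119 and 353 CPM.

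Several of the largest differences rested on few cells. SST, the somatostatin gene, stood at 82.4 and 186 CPM from 4 and 9 cells, with 97 UMIs in 1 cell of embryo 2 (3.54 ± 0.36, adjusted p = 6.64e-09). EBF3-positive neurons overlapped it at 136 and 32.5 CPM, and DLX GABA neurons held more, at 556 and 475 CPM. SPARCL1, an extracellular matrix protein, stood at 63.0 and 51.5 CPM from 9 and 8 cells (2.97 ± 0.31, adjusted p = 1.67e-08). TTR, the thyroxine carrier of choroid plexus, stood at 1557 and 612 CPM from 21 and 24 cells, with up to 613 and 231 UMIs in 1 cell (3.64 ± 0.34, adjusted p = 8.17e-10). GATA3/OTX2 GABA neurons overlapped it, at 76.0 and 814 CPM.

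**Figure D4:**
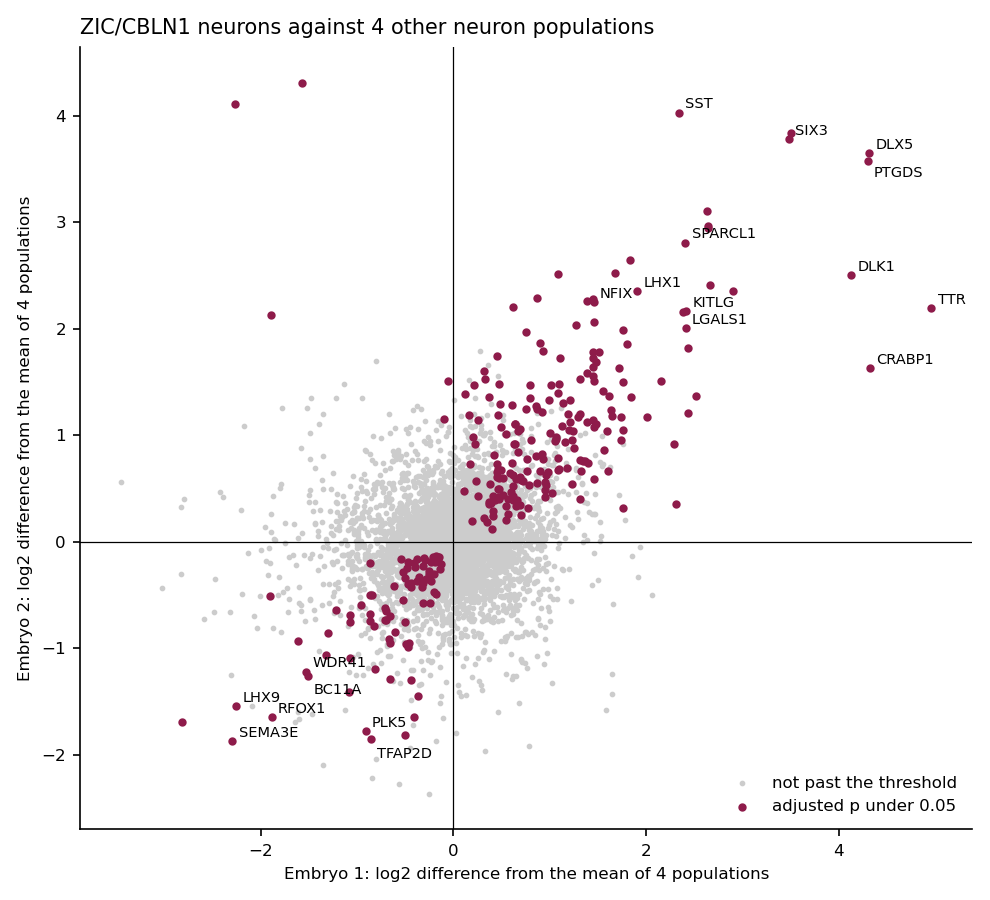
Log2 difference of the ZIC/CBLN1 neurons from the mean of 4 neuron populations for the 5633 genes tested, in embryo 1 (horizontal axis) and embryo 2 (vertical axis), with the 282 genes past the threshold in dark red. Most called genes lie at the upper right or lower left, with PTGDS, DLX5, SIX3 and DLK1 far up in both embryos and LHX9, TFAP2D and RFOX1 down, and 5 lie on opposite sides.

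The 83 lower genes, a number that came to 115 beside 118 higher ones at 3 or more markers, included LHX9, TFAP2D, RFOX1 and BC11A. LHX9 stood at 9.70 and 18.2 CPM (-1.84 ± 0.29, adjusted p = 4.01e-05). TFAP2D, a transcription factor of the dorsal midbrain, stood at 31.5 and 24.3 CPM (-1.50 ± 0.24, adjusted p = 5.23e-05). The model named RFOX1, a splicing factor of neurons, stood at 4.85 and 15.2 CPM, against 11.7 to 72.0 CPM (-1.92 ± 0.39, adjusted p = 0.00115), and BC11A at 19.4 and 21.2 CPM, against 40.0 to 78.6 CPM (-1.44 ± 0.26, adjusted p = 0.00026). For LHX9 and TFAP2D the difference came from the TCF7L2-high and EBF3-positive neurons, since GATA3/OTX2 GABA and cortical-type neurons held 3.40 to 30.9 CPM of them.

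A further population was added after the data were seen, the GAD-positive neurons with DLX1, DLX2 or DLX5 (484 and 856 cells). As a 5th member of the mean, it left 241 of the 282 genes called, among 319 of 6133 genes in all. Of the genes named by rule or list, LHX9, TFAP2D, SEMA3E, LIN7A and CHGB then no longer passed.

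Of the reference populations, the TCF7L2-high, EBF3-positive and GATA3/OTX2 GABA neurons were also compared alone. Cortical-type neurons entered the tests only through the mean of 4. Against TCF7L2-high neurons, 176 genes were higher (3.12% of those tested) and 165 lower (2.93%), or 341 in all (6.05%), and 164 without the block. UNCX, a homeobox gene, stood at 41.2 and 53.1 CPM against 0 and 1.64 CPM (5.52 ± 0.64, adjusted p = 9.27e-08). LHX9, TFAP2D and IRX5, a homeobox gene of thalamus and midbrain, were lower. LHX9 stood at 296 and 301 CPM in TCF7L2-high neurons (-4.28 ± 0.24, adjusted p = 1.37e-15), TFAP2D at 333 and 429 CPM (-3.80 ± 0.21, adjusted p = 6.37e-16) and IRX5 at 140 and 258 CPM against 29.1 and 48.5 CPM (-2.30 ± 0.22, adjusted p = 8.89e-10). NEFM was lower as well, at 245 and 141 CPM against 1112 and 682 CPM (-2.19 ± 0.17, adjusted p = 1.22e-11).

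Against EBF3-positive neurons, 126 genes were higher (2.24%) and 125 lower (2.22%), or 251 (4.46%), and 122 without the block. At 3 or more markers 59 were higher and 100 lower. DLX5 was higher, from 1.95 and 3.75 CPM in EBF3-positive neurons (5.79 ± 0.42, adjusted p = 2.96e-12). EN1, a homeobox gene of the midbrain and first rhombomere, was lower, at 2.42 and 7.58 CPM against 54.6 and 38.8 CPM (-2.96 ± 0.50, adjusted p = 0.000107). POU4F2, a POU factor of dorsal midbrain neurons, was lower too, at 9.70 and 12.1 CPM against 58.5 and 103 CPM (-2.90 ± 0.37, adjusted p = 9.61e-07).

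Among the populations compared alone, the largest number of differences was found against GATA3/OTX2 GABA neurons. These numbers were not adjusted for population size, which was 1119 cells there, 286 for TCF7L2-high, 314 for EBF3-positive and 1340 for DLX GABA neurons. They do not measure how far the populations differ. With GATA3/OTX2 GABA neurons as the reference, 397 genes were higher (7.05%) and 299 lower (5.31%), or 696 (12.4%), and 382 without the block. The split was 244 to 252 at 3 or more markers and 181 to 178 at 2000 UMIs per cell. CACNA2D1, a calcium channel subunit, stood at 75.2 and 86.4 CPM against 7.94 and 3.69 CPM (4.03 ± 0.34). Within the ZIC/CBLN1 neurons, cells with a GAD gene or SLC32A1 and no SLC17A6 held it at only 9.88 and 5.16 CPM. Those with SLC17A6 alone held 282 and 268 CPM. ISLR2, an axon growth protein, stood at 89.7 and 100 CPM against 7.94 and 5.27 CPM (3.97 ± 0.31). PAX3 and LHX5, factors of dorsal midbrain and hindbrain, were lower, with PAX3 at 19.4 and 39.4 CPM against 99.8 and 131 CPM (-1.87 ± 0.24, adjusted p = 3.71e-07) and LHX5 at 24.2 and 31.8 CPM against 82.8 and 105 CPM (-1.69 ± 0.26, adjusted p = 1.46e-05). TFAP2B stood at 242 and 535 CPM against 613 and 812 CPM (-0.81 ± 0.18, adjusted p = 0.00126).

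Against the DLX GABA neurons, 352 of 6133 genes were higher (5.74%) and 230 lower (3.75%), or 582 (9.49%). The split was 176 to 69 without the block, 129 to 44 by DESeq2, 172 to 176 at 3 or more markers and 302 to 307 with no filter on genes. TFAP2B and UNCX lay on the higher side, with TFAP2B at 242 and 535 CPM against 27.3 and 61.3 CPM (3.11 ± 0.23, adjusted p = 5.32e-12) and UNCX at 41.2 and 53.1 CPM against 1.56 and 4.44 CPM (3.82 ± 0.37, adjusted p = 1.16e-09). SOX6, known from telencephalic interneurons, lay on the lower side, at 4.85 and 6.06 CPM against 71.6 and 75.1 CPM (-3.69 ± 0.41). SIX3 at 60.0 and 58.6 CPM and PAX6 at 28.8 and 22.2 CPM in DLX GABA neurons did not differ past the threshold (adjusted p = 0.715 and 0.223). PTGDS remained apart, at 216 and 115 CPM in DLX GABA neurons (2.38 ± 0.17, adjusted p = 2.06e-12).

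Marker lists for regions were counted next. Of 6 midbrain GABA genes tested against the mean of 4, 5 were higher (SOX14, LHX5, LHX1, PAX7 and TFAP2B, median 2.24). In that comparison 3.53% of all genes tested were higher and 1.47% lower. Against DLX GABA neurons 6 of 6 were higher (median 2.98, where 5.74% of all genes tested were higher). Against GATA3/OTX2 GABA neurons 0 of 6 were higher and 4 were lower (PAX7, LHX1, LHX5 and TFAP2B; median -1.35), where 7.05% of all genes tested were higher and 5.31% lower. Of 6 septal and subpallial genes, 3 were higher than the mean of 4 (SIX3, DLX5 and ISL1) and 0 were lower (median 2.26). Beside them, the median over all genes tested was 0.00 against the mean of 4 and against DLX GABA neurons.

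The next lists were also read against the mean of 4, where 3.53% of all genes tested were higher and 1.47% lower with a median of 0.00. Of 7 thalamic genes tested, KITLG was higher and LHX9 and NEFM were lower (median -0.05). Of 9 genes of dorsal midbrain excitatory neurons, 5 were higher and 0 lower (median 0.82), and 4 of these 5 also stand in the midbrain GABA list. Of the same 9, 4 were higher and 3 lower than in TCF7L2-high neurons (3.12% and 2.93% of all genes tested). Against EBF3-positive neurons the numbers were 3 and 3 (2.24% and 2.22%). They were 1 and 5 against GATA3/OTX2 GABA neurons (7.05% and 5.31%, median -0.81) and 8 and 0 against DLX GABA neurons (5.74% and 3.75%). The lists for Cajal-Retzius neurons (3 of 5 higher, median 1.00), Purkinje neurons (2 of 4, median 1.22) and cerebellar or hindbrain GABA neurons (2 of 2, median 2.57) owed their counts to LHX1 and LHX5, with RELN in the first. Of 4 rhombic lip genes tested, PAX6 and NFIB were higher and LHX9 was lower (median 1.94). PAX6 had passed the low-count filter only through the ZIC/CBLN1 neurons. Of 11 genes of brain position, SIX3 alone was higher than the mean of 4 and 0 were lower (median -0.13). Of the same 11, 6 were lower than in TCF7L2-high neurons, 5 than in EBF3-positive and 6 than in GATA3/OTX2 GABA neurons, with IRX3, IRX5 and EN2 among them each time. Of 5 habenular genes GNG8 was higher and LMO3 lower (median -0.40), and of 3 cortical genes 0 passed (median 0.98). GNG8 in the ZIC/CBLN1 neurons came from embryo 2, at 69.7 CPM against 4.85 CPM in embryo 1, and with TCF7L2 at 0 its sign turned (-2.89).

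Axon guidance and adhesion genes moved both ways. Of 30 tested against the mean of 4, 7 were higher and 4 lower (median -0.26), where 3.53% of all genes tested were higher and 1.47% lower. ROBO3, a receptor that lets commissural axons cross the midline, was higher at 36.4 and 25.8 CPM against 0 to 15.6 CPM (2.58 ± 0.45, adjusted p = 0.000186). ROBO2, a receptor for repellent SLIT proteins, was lower at 77.6 and 72.8 CPM (-1.06 ± 0.15, adjusted p = 4.42e-06), and so was ROBO1 at 21.8 and 27.3 CPM (-1.09 ± 0.25, adjusted p = 0.00543). CHL1, an adhesion protein of the L1 family, was lower at 150 and 161 CPM (-0.77 ± 0.19, adjusted p = 0.0106), though above the 88.4 and 65.9 CPM of GATA3/OTX2 GABA neurons.

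Of 11 transmitter receptor genes tested, GABRG1 and GABRA2, subunits of the GABA-A receptor, were higher and 0 were lower (median 0.12). GABRG1 stood at 53.3 and 69.7 CPM (1.75 ± 0.26, adjusted p = 1e-05). For channels and maturation, the counts stand beside 3.53% of all genes higher and 1.47% lower, and 1 gene higher in each list is no result about the list. Of 13 ion channel genes, SCN9A alone was higher (median 0.02), at 14.5 and 13.6 CPM. Of 22 genes of neuron maturation, CHGB was higher and NEFM and SCG3 were lower (median -0.06). Of 5 genes for synaptic organisers outside the rule, C1QL3 was higher than the mean on the log scale (median 0.46), at 4.85 and 21.2 CPM, but cortical-type neurons held 88.5 and 163 CPM of it and its log2 difference was -0.05 without embryo 2. CBLN2 stood at 7.27 and 1.52 CPM and CBLN4 at 0 in both embryos.

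Within the ZIC/CBLN1 neurons, the cells with SLC17A6 alone (10 and 18) were compared with those that had GAD1, GAD2 or SLC32A1 alone (57 and 116). Of 5441 genes, 42 were higher in the glutamatergic cells (0.772%) and 83 in the GABAergic cells (1.53%), or 125 (2.3%). Without the block 30 were called, 17 higher and 13 lower in the glutamatergic cells, and at 3 or more markers 12 and 57. The median over all genes tested was -0.11. Median depths were 3980.5 and 3804 UMIs in the glutamatergic and 3275 and 2887.5 UMIs in the GABAergic cells, and haemoglobin took 0.234% and 0.0635% of the former's UMIs against 6.88% and 3.97% of the latter's.

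CACNA2D1 stood at 282 and 268 CPM against 9.88 and 5.16 CPM (5.09 ± 0.58, adjusted p = 3.64e-08). NEFM stood at 846 and 466 CPM against 84.0 and 54.2 CPM (3.02 ± 0.34, adjusted p = 2.89e-08), and CHL1 at 629 and 607 CPM against 54.4 and 101 CPM (2.65 ± 0.39, adjusted p = 1.5e-05). DACH1, a transcriptional cofactor, stood at 130 and 240 CPM against 9.88 and 33.6 CPM (2.74 ± 0.51, adjusted p = 0.000577).

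Of 7 thalamic genes tested, LHX9 and NEFM were higher in the glutamatergic cells and 0 lower (median 0.42), and of 9 genes of dorsal midbrain excitatory neurons POU4F2 and SHOX2 were higher and LHX1 lower (median -0.72), beside 0.772% and 1.53% of all genes. LHX9 stood at 43.4 and 141 CPM and was at 0 in all GABAergic cells, a difference of at least 20.2-fold, and POU4F2 was at least 10.1-fold higher. At least 1 cortical factor was found in 15 of the 28 glutamatergic cells (6 of 10 in embryo 1 and 9 of 18 in embryo 2) and in 22.8% and 5.17% of the GABAergic cells. The 28 cells therefore carried more than 1 set of lineage factors.

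The GABAergic cells held DLX5 at 301 and 300 CPM, against 0 in both embryos of the glutamatergic cells, a difference of at least 11.7-fold (adjusted p = 3.53e-06). DLX1, DLX2 or DLX5 were found in 49.1% and 44.8% of the GABAergic cells and LHX1 or LHX5 in 28.1% and 45.7%. In the glutamatergic cells LHX1 or LHX5 were found in 3 of 10 (30.0%) and 4 of 18 (22.2%), so the order of the LHX shares differed between the embryos. LHX1 stood at 128 and 284 CPM against 43.4 and 28.2 CPM (-2.91 ± 0.56, adjusted p = 0.000923). WLS, which carries WNT proteins to the cell surface, stood at 119 and 240 CPM against 21.7 and 0 CPM (-4.68 ± 0.90, adjusted p = 0.000916). PTGDS was also higher in the GABAergic cells, at 1072 and 697 CPM against 109 and 198 CPM (-2.59 ± 0.35, adjusted p = 3.12e-06).

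**Figure D5:**
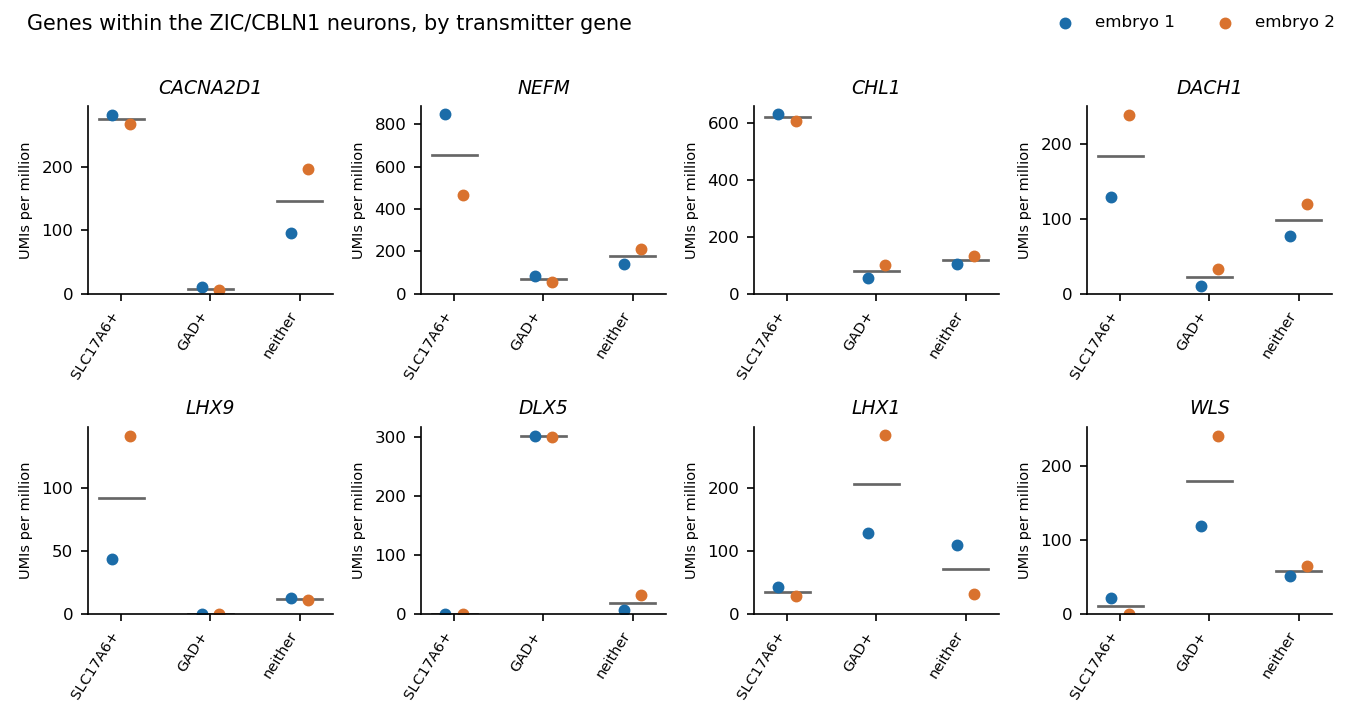
Summed level (CPM, linear axis from 0) of 8 genes in the ZIC/CBLN1 neurons with SLC17A6, with a GAD gene or SLC32A1, or with neither, in each embryo (points) with the mean of both (line). CACNA2D1, NEFM, CHL1, DACH1 and LHX9 are highest in the SLC17A6-positive cells and DLX5, LHX1 and WLS in the GAD-positive cells, in both embryos.

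The 37 and 47 cells with neither transmitter gene held CACNA2D1 at 96.3 and 197 CPM and PTGDS at 1143 and 912 CPM. VIM, an intermediate filament gene of radial glia and young neurons, stood there at 546 and 748 CPM, beside 138 and 188 CPM in the GABAergic cells. TTR stood there at 3986 and 1764 CPM, beside 98.8 and 204 CPM, with 613 and 231 UMIs in 1 of these cells of each embryo. No test was run on these cells.

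Fewer genes were called between ZIC/CBLN1 neurons with and without CBLN1 than between the transmitter classes. The difference in number was not tested. Between the 43 and 76 cells with CBLN1 and the 62 and 109 without it, 10 of 5270 genes were higher (0.19%) and 12 lower (0.228%), or 22 (0.417%), and 3 without the block. Cells with CBLN1 had median depths of 3906 and 3391.5 UMIs, and those without it, which needed 2 ZIC genes, 3342 and 2962 UMIs. NFL and INA were higher with CBLN1. The model named NFL, a name of a neurofilament subunit, stood at 158 and 51.3 CPM against 38.2 and 15.5 CPM (1.97 ± 0.42, adjusted p = 0.0208) and INA, an intermediate filament of neurons, at 414 and 392 CPM against 277 and 194 CPM (0.80 ± 0.15, adjusted p = 0.00796). PPP1R1A, a phosphatase inhibitor regulated by protein kinase A, stood at 464 and 385 CPM against 167 and 160 CPM (1.34 ± 0.19, adjusted p = 0.000109).

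Cells without CBLN1 held more PTGDS, at 1502 and 987 CPM against 419 and 253 CPM (-1.90 ± 0.23, adjusted p = 7.09e-06), and more DLX5, at 262 and 233 CPM against 34.5 and 117 CPM (-1.65 ± 0.31, adjusted p = 0.00696). TTR moved with PTGDS, at 3033 and 716 CPM without CBLN1 against 29.6 and 465 CPM with it (-3.07 ± 0.63, adjusted p = 0.0135), with 613 UMIs in 1 CBLN1-negative cell of embryo 1, and at 3 or more markers TTR was higher with CBLN1 (3.32). Erythroid HBE1 also moved with it, at 47.7 and 2528 CPM against 24.7 and 29.3 CPM (-5.64 ± 0.97, adjusted p = 0.0022), with 878 of its UMIs in 1 cell of embryo 2. Haemoglobin took 0.641% and 7.42% of UMIs without CBLN1 and 13.2% and 0.0883% with it. The part of choroid plexus or blood RNA in the PTGDS difference was not tested. SLC17A6 stood at 104 and 114 CPM with CBLN1 and at 19.1 and 10.3 CPM without it, which is given as a description because transmitter genes were not tested.

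Markers of other cells moved with some of these results. The erythroid list summed to 68489 and 43024 CPM, led by HBB, and 5 of its 5 tested genes were higher than the mean of 4, beside 3.53% of all genes tested. Against GATA3/OTX2 GABA neurons 0 of 5 passed. At 3 or more markers the direction turned, with HBB (-4.31), AHSP (-4.47) and ALAS2 (-3.32) called lower than the mean of 4 by edgeR, and it also turned for these 3 genes with the highest Scrublet doublet scores left out, there without passing (-1.04, -1.36 and -2.29). Of the 290 cells, 10 had at least 1% haemoglobin UMIs and 4 had over 50%, with up to 12939 and 13203 UMIs of HBB in 1 cell. With cells of at least 1% haemoglobin left out of every population, HBB stood level with the mean of 4 (-0.0040) and HBE1 was not called, while AHSP and ALAS2 were not among the genes tested. The choroid plexus list summed to 1586 and 690 CPM, almost all of it TTR, while CLIC6 was at 0. Radial glial markers summed to 487 and 658 CPM, led by VIM, and VIM and FABP7 of 4 tested genes were higher than the mean of 4 although NES was barred by the gate.

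Fibroblast markers summed to 14.5 and 4.55 CPM, led by COL1A2, with LUM, COL1A1 and PDGFRB at 0. The gate allowed at most 1 UMI of COL1A1, COL1A2 and COL3A1 together. Their low values were thus largely set by the rule and say nothing about fibroblast RNA. Endothelial markers summed to 7.27 and 9.10 CPM with PECAM1, CDH5 and EMCN at 0. Microglial markers summed to 2.42 and 12.1 CPM with CSF1R and CX3CR1 at 0, and oligodendrocyte lineage markers to 2.42 and 0 CPM. Among the highest doublet scores of the libraries were 10 of 105 and 22 of 185 of the ZIC/CBLN1 neurons, and 171 of 3753 and 345 of 5705 other cells of the gate, so the share was higher among the ZIC/CBLN1 neurons in both embryos. PTGDS, DLX5, SIX3, LHX1 and PAX6 were called against the mean of 4 with those cells left out and with the haemoglobin-rich cells left out. The part of other cells' RNA in the TTR, VIM and PTGDS levels was not tested. Of 6 stress genes tested, EGR1 and FOS were higher than the mean of 4 (median 0.37), beside the 3.53% of all genes.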

How the data were processed

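Whole-brain cells of 2 embryos were measured by 10x droplet RNA sequencing. The authors checked read quality with fastp and counted UMIs per gene and cell with Cell Ranger 3.1.0 at default settings on the long-read assembly TS_2.0, and the deposited matrices hold raw counts (9241 and 9685 cells). Their later steps used Seurat 3. The annotation has 23975 gene models under 18543 names, and models that share a name were summed.

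The chosen cells and gene lists were selected with earlier results of these data known. Named genes are list members, and those with the largest changes past the threshold, in the same direction in both embryos and with at least 50 UMIs in the higher population.

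Counts were summed per population and embryo, scaled by TMM, filtered for low counts and tested by edgeR 4.0.16 (R 4.3.3), with the embryo as a block because each animal gave every population. Genes that define populations, transmitter genes included, were not tested. A 5th population, its comparison and the cells beside which shares were read were added after the data were seen. Intervals are Clopper-Pearson at 95% (scipy 1.17.1). No doublets were removed for the main values. Scrublet (scanpy 1.11.5) scored them, and the highest scores, 0.8% per 1000 cells, were left out as an alternative. Other alternatives were DESeq2 1.42.0, RLE size factors, no filter, no block, other cell limits, thinning to 2000 UMIs and leaving out each embryo. The tests were tried on simulated data first. Some genes of the lists are not reported here.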

Additional observations from a re-analysis of the deposited data

How the results depend on the processing

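With the replicate block taken out, fewer genes were called: 164 against TCF7L2-high neurons, 122 against EBF3-positive, 382 against GATA3/OTX2 GABA and 245 against DLX GABA neurons, 117 against the mean of 4, 30 between transmitter classes and 3 by CBLN1. DESeq2 called 119, 76, 220, 173 and 89 in the first 5 of these. Thinning to 2000 UMIs gave 190, 126, 359, 290, 125, 71 and 11. Against the mean of 4, 118 genes were higher and 115 lower at 3 or more markers, beside 199 and 83. There the other counts were 148 (TCF7L2-high), 159 (EBF3), 496 (GATA3/OTX2 GABA), 348 (DLX GABA), 69 (transmitter) and 13 (CBLN1). DLX GABA gave 310 at 1000 genes per cell, and CBLN1 gave 35 with no filter and 14 with TCF7L2 at 0. The cause of these changes was not tested. With 1 embryo left no spread can be estimated, so genes were not counted then.

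The cells numbered 1499 (9.24%) at 1 marker, 80 (0.495%) at 3 and 503 (3.13%) with no TCF7L2 limit. The share was 2.26% with no EBF3 limit and 2.28% with no NES limit, and single embryos held 105 to 185 cells. SLC17A6 was found in 9.97% after thinning, 12.7% at 1000 genes and 13.5% at 3 markers (6.25% and 20.8% by embryo), and GAD1 or GAD2 in 50.9% after thinning.

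Over 313 gene results and 11 tested alternatives, 35 of 3089 values changed sign and 528 lost their call. Sign changes in single embryos come on top of these and are given as ranges. Erythroid genes made up most sign changes. At 3 markers, log2 values were -3.27 (AHSP), -2.46 (ALAS2) and -3.42 (HBB) against TCF7L2-high neurons, -3.90, -3.12 and -4.19 against EBF3-positive neurons, -4.47, -3.32 and -4.31 against the mean of 4, and -5.45 (AHSP) and -4.11 (ALAS2) against DLX GABA. With the highest Scrublet scores left out they were -2.13, -2.98 and -1.12, then -1.53 (ALAS2) and -0.46 (HBB), then -1.36, -2.29 and -1.04, then -2.46 and -2.61. Without haemoglobin-rich cells AHSP was -0.61 against DLX GABA and HBB -0.0040 against the mean of 4, and thinning put ALAS2 at -0.30 against DLX GABA. Between transmitter classes AHSP was 0.19 and ALAS2 6.71 at 3 markers, and 1.01 and 5.41 by Scrublet.

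Also at 3 markers, SST was -0.40 between transmitter classes, SIX3 0.066 against DLX GABA, TTR -0.22 against GATA3/OTX2 GABA, and CDKN1C 0.47 and TTR 3.32 by CBLN1. With TCF7L2 at 0, GNG8 was -0.53 against GATA3/OTX2 GABA and -2.89 against the mean of 4. With 1 embryo left out, log2 values ranged from -1.48 to 4.24 (CNTN2), -7.34 to 0.035 (HBE1) and -5.81 to 6.17 (SST) between transmitter classes, from -2.25 to 0.25 (CHGB) against DLX GABA, from -0.35 to 4.32 (TTR) against GATA3/OTX2 GABA, from -0.054 to 1.51 (C1QL3), -1.89 to 2.13 (GNG8) and -1.57 to 4.31 (HBE1) against the mean of 4, and from -0.28 to 6.03 (HBE1) against TCF7L2-high neurons. Depth limits single genes, since 1 UMI is about 2.42 and 1.52 CPM in these cells.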

Other observations

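HOX genes, which mark hindbrain and spinal cord, were found in 10 of the ZIC/CBLN1 neurons of embryo 1 and 3 of embryo 2 (9.52% and 1.62%), against 1.73% and 0.298% of the other cells of the gate. The list summed to 104 and 4.55 CPM, with HOXA5 at 33.9 and 0 CPM and HOXA2 at 29.1 and 3.03 CPM. NKX2-1, a homeobox gene of the ventral forebrain, stood at 26.7 and 0 CPM and PTF1A, a factor of GABA neuron progenitors of the cerebellum and hindbrain, at 9.70 and 0 CPM. The neuropeptide gene PENK stood at 43.6 and 1.52 CPM and GAL at 2.42 and 27.3 CPM. LHX8, a LIM homeobox gene of ventral forebrain neurons, stood at 33.9 and 13.6 CPM. These embryo differences rest on few cells and 1 animal each, and were not tested.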
